A study of Rattus norvegicus with 6 samples.

Results

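A set of 9 transporter genes of the hepatocyte were compared between normal and fibrotic rat liver. They were taken by gene symbol and grouped by their place in the cell, as 3 genes of sinusoidal uptake (Slc10a1, Slco1a1, Slco1b2), 4 of canalicular export (Abcb11, Abcb4, Abcc2, Abcg2) and 2 of basolateral export (Abcc3, Abcc4). Of these 9 genes, 8 had a row under their symbol among the 19616 genes of the expression table, and the expression of Abcb4 was not analysed here.

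Total RNA depleted of ribosomal RNA was sequenced from the livers of 6 male SD (Sprague-Dawley) rats, with 1 library per rat. Rats FL2, FL5 and FL12 (FL group, liver fibrosis) had been injected intraperitoneally with carbon tetrachloride (CCl4), a solvent toxic to hepatocytes, mixed with an equal volume of olive oil, at 2 mL/kg and 2 times a week for 5 weeks. Rats CL5, CL6 and CL7 (CL group, normal liver) had received the same volume of olive oil. The age of the rats is not given in the sources used here, and the sequenced rats were part of larger groups.

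Hepatocytes take bile acids and other organic anions from sinusoidal blood through Slc10a1 (NTCP, the sodium-dependent bile acid carrier) and the organic anion transporters of the Slco family. They secrete bile through ATP-driven pumps of the canalicular membrane, where Abcb11 (BSEP) exports bile salts and Abcc2 (MRP2) exports conjugates such as bilirubin glucuronides. Abcc3 (MRP3) and Abcc4 (MRP4) sit in the basolateral membrane and carry conjugates and bile acids back towards the blood, a route known to gain weight in cholestasis.

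Expression was given as FPKM (fragments per length of transcript and per mapped fragment of a library), a scale that allows genes to be compared with each other. The FPKM of all genes summed to 309425, 340467 and 315259 in CL5, CL6 and CL7, and to 309226, 272350 and 272110 in FL2, FL5 and FL12. The number of reads behind each library is not given in the sources used here. Low values of 114 U6 genes rose in steps that put the depth relative to CL5 at 0.656 in CL6, 0.840 in CL7, 0.677 in FL2, 0.750 in FL5 and 0.677 in FL12. Col1a1, the type I collagen gene used as a check of the labels, read 2.12, 3.77 and 2.12 FPKM in the CL rats against 17.0, 101 and 73.7 FPKM in the FL rats. Its level in FL2 was the lowest of the FL group and still above every CL rat. The liver itself was evident from Alb (albumin), with CL and FL means of 32272 ± 1010 and 24803 ± 572 FPKM (SD, n = 3 rats each).

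The transporters fell into an abundant and a scarce class. In the CL group the order of mean levels was Slco1b2, Slc10a1, Abcc2 and Abcb11, each overlapping the next in its range over rats, then Slco1a1 below all of these without overlap. Abcc4, Abcc3 and Abcg2 followed at means between 1.92 and 2.08 FPKM, with overlapping ranges. In the FL group Slco1b2 and Slc10a1 again overlapped at the top, Abcb11 and Abcc2 overlapped below them, and Slco1a1 was next without overlap. Abcc3 and Abcc4 came next, overlapping each other, and Abcg2 stood last without overlap with Abcc4. Summed over the 8 genes, transporter FPKM made up 0.202 ± 0.0299% of all FPKM in the CL group and 0.197 ± 0.0261% in the FL group.

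**Figure D1:**
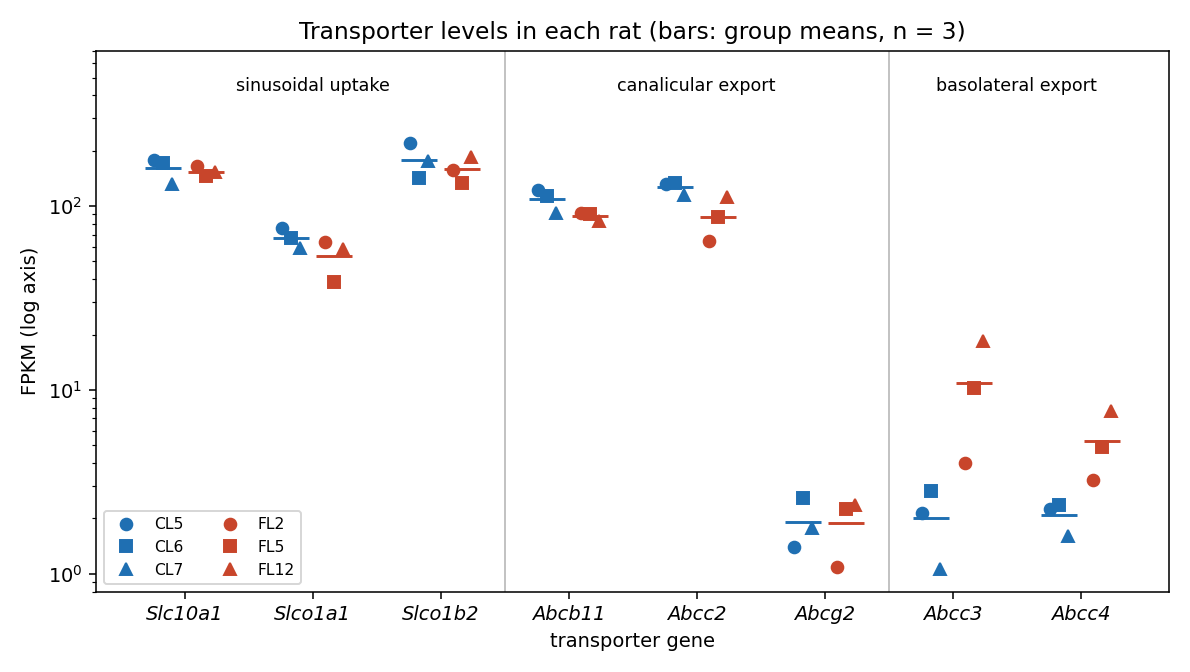
FPKM of the 8 transporter genes in each rat on a log axis, with CL rats in blue, FL rats in red and horizontal bars at group means (n = 3). Abcc3 and Abcc4 are higher in every FL rat than in every CL rat, Abcb11 and Abcc2 are lower in every FL rat, and the other 4 genes overlap.

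Differences between the groups were tested with limma on log2(FPKM + 0.1), with Benjamini-Hochberg adjustment over the 14864 genes whose mean reached 0.1 FPKM. Upregulated or downregulated genes were those with a change of at least 2-fold whose adjusted p was under 0.05. All 8 transporters passed the filter in either group, since their lowest single value was 1.06 FPKM. Of the 8 genes, 2 were upregulated (Abcc3 and Abcc4), against 9.29% of all genes tested, and 0 were downregulated, against 0.935% of all genes. The adjusted p alone passed the same 2 genes upward, against 16.9% of all genes, and 0 downward, against 1.94%. At an unadjusted p under 0.05 limma counted the same 2 genes higher, against 31.5% of all genes, and 1 gene lower (Abcc2), against 4.04%. Groups did not overlap for 2 genes higher in the FL group, against 35.7% of all genes, and for 2 genes lower in it (Abcb11 and Abcc2), against 4.78%. With so few genes these shares describe the list and were not tested.

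The scale of the values bears on the log2 fold changes given here. The log2 fold change of the FL group had a median of 0.29 over the genes tested. Median scaling moved it to 0.08 and quantile normalization to -0.05. Log2 fold changes relative to the median of all genes are therefore added below. Counts over all genes were 1381 upregulated and 139 downregulated, and quantile normalization shifted this split to 456 and 227.

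Slc10a1 (ENSRNOG00000005794, chromosome 6) read 177 FPKM in CL5, 172 in CL6 and 132 in CL7, against 164 in FL2, 145 in FL5 and 153 in FL12. All 3 FL rats lay inside the range of the CL rats. Group means were 160.3 ± 24.6 and 154 ± 9.68 FPKM (SD, n = 3 rats each). The log2 fold change was -0.05 with a 95% confidence interval from -0.41 to 0.32 (limma adjusted p = 0.851), which as a ratio of FL to CL runs from 0.752 to 1.25. Relative to the median of all genes it was -0.34. The sign itself depended on the scaling, at -0.27 with median scaling and 0.0055 with quantile normalization.

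Slco1b2 (ENSRNOG00000030538, chromosome 4), the liver-specific OATP1B2, was the most abundant of the 8 genes in either group by its mean. It read 219, 142 and 176 FPKM in the CL rats against 157, 134 and 184 FPKM in the FL rats. The highest value came from CL5 and the lowest from FL5, and the groups overlapped. The log2 fold change was -0.17 (95% confidence interval -0.63 to 0.29, limma adjusted p = 0.577), or -0.46 relative to the median of all genes. It was -0.011 without CL5 and -0.053 without FL5.

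Slco1a1 (ENSRNOG00000036984, chromosome 4), which encodes OATP1A1, another multispecific anion carrier, was the least abundant uptake gene. Its values were 75.7, 66.8 and 59.1 FPKM in the CL rats and 63.4, 38.7 and 58.3 FPKM in the FL rats. FL5 was the lowest rat by a wide margin, whereas FL2 lay within the CL range. Means of 67.2 ± 8.31 and 53.5 ± 13.1 FPKM gave a log2 fold change of -0.35 (95% confidence interval -0.81 to 0.11, limma adjusted p = 0.240), or -0.64 relative to the median. Without FL5 the log2 fold change was -0.14. Genes of the Slco1a subfamily are alike in sequence, and how far reads mapped to several of them were lost was not tested.

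Together the 3 uptake genes summed to 472, 381 and 367 FPKM in the CL rats and 384, 318 and 395 FPKM in the FL rats. The group means of this sum, 406 ± 56.8 and 366 ± 42.1 FPKM, differed by less than the SD of the CL group. In bulk liver, fewer hepatocytes and less RNA per hepatocyte cannot be told apart.

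Abcb11 (ENSRNOG00000050860, chromosome 3) read 122.36, 113.35 and 91.45 FPKM in the CL rats against 91.25, 90.32 and 82.5 FPKM in the FL rats. Every FL rat was below every CL rat, but CL7 and FL2 differed by little. Means were 109 ± 15.9 and 88.0 ± 4.81 FPKM. The log2 fold change of -0.30 (95% confidence interval -0.63 to 0.03) did not pass the limits (limma adjusted p = 0.178), and the ratio of FL to CL was 0.813 (0.645 to 1.02). Relative to the median of all genes the difference was -0.59, and with median scaling it was -0.52 (adjusted p = 0.0506, range over 14 alternatives 0.0506 to 0.394). With quantile normalization the log2 fold change was -0.28 (limma adjusted p = 0.172).

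Abcc2 (ENSRNOG00000046727, chromosome 1) had the most negative log2 fold change of the 8 transporters. It read 132, 133 and 114 FPKM in the CL rats against 64.3, 87.3 and 112 FPKM in the FL rats. The CL rats lay close together, while the FL rats spread from FL2, the lowest, to FL12, just under CL7. Means of 127 ± 10.7 and 87.7 ± 23.6 FPKM gave a log2 fold change of -0.56 (95% confidence interval -1.03 to -0.09) and -0.85 relative to the median. The limma adjusted p was 0.0902, and a reduction to 0.677 of the CL level (0.489 to 0.937) is smaller than the fold limit. The adjusted p became 0.0307 with median scaling, at a log2 fold change of -0.79, and 0.0418 without FL12, at -0.75. It was 0.132 without FL2, where the log2 fold change shrank to -0.36, and 0.166 with quantile normalization, at -0.54, within a range of 0.0307 to 0.204 over 14 alternatives.

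Abcg2 (ENSRNOG00000007041, chromosome 4), the BCRP pump of sulfated conjugates and urate, was expressed at a low level. It read 1.39, 2.59 and 1.77 FPKM in the CL rats against 1.09, 2.24 and 2.37 FPKM in the FL rats. Both groups spread over about the same range, with CL6 highest and FL2 lowest. The log2 fold change was -0.04, and its 95% confidence interval from -0.81 to 0.73 is wide (limma adjusted p = 0.942). It was -0.25 with median scaling and -0.48 with quantile normalization, and its sign turned to 0.19 without CL6 and 0.30 without FL2.

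The sum over the 3 canalicular genes was 256, 249.4 and 208 FPKM in the CL rats and 157, 179.8 and 196 FPKM in the FL rats. This sum, made up almost wholly of Abcb11 and Abcc2, was lower in every FL rat than in every CL rat, with means of 238 ± 26.2 and 178 ± 19.96 FPKM. It was not tested as a sum.

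Abcc3 (ENSRNOG00000002948, chromosome 10) was scarce in normal liver and higher in all fibrotic livers. It read 2.13, 2.83 and 1.06 FPKM in the CL rats against 4.01, 10.22 and 18.35 FPKM in the FL rats. FL12 was the highest and FL2 the lowest of the FL group, and FL2 still exceeded CL6, the highest CL rat. Means were 2.01 ± 0.891 and 10.9 ± 7.19 FPKM. Abcc3 was upregulated with a log2 fold change of 2.23 (standard error 0.54, limma adjusted p = 0.0280), a ratio of 4.69 with a 95% confidence interval from 1.97 to 11.1. It was 1.94 relative to the median of all genes. The call held in 8 of 14 alternatives, with adjusted p between 0.00744 and 0.0987. It was lost without CL5 (adjusted p = 0.0685), CL7 (0.0987), FL5 (0.0909) or FL12 (0.0703), with quantile normalization (0.0678) and in limma without trend (0.0589), although the log2 fold change never fell under 1.73.

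Abcc4 (ENSRNOG00000010064, chromosome 15) followed the same order of rats within the FL group. Its values were 2.25, 2.38 and 1.6 FPKM in the CL rats and 3.25, 4.88 and 7.68 FPKM in the FL rats. As for Abcc3, FL12 was highest, FL2 was the lowest FL rat and CL7 the lowest rat of all, and the groups did not overlap. Means of 2.08 ± 0.418 and 5.27 ± 2.24 FPKM gave upregulation by a log2 fold change of 1.24 (standard error 0.30, limma adjusted p = 0.0292), a ratio of 2.36 with a 95% confidence interval from 1.45 to 3.83. Relative to the median it was 0.95. Only 5 of 14 alternatives kept the call, with adjusted p between 0.00989 and 0.105 over all 14. The adjusted p was 0.0684 without CL5, 0.0593 without CL6, 0.105 without CL7, 0.0845 without FL5, 0.0625 without FL12, 0.0519 with median scaling, 0.0955 with quantile normalization and 0.0568 in limma without trend. A pseudocount of 1 left the adjusted p at 0.0367 but the log2 fold change at 0.97, under the fold limit.

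Abcc3 and Abcc4 made up a small part of the FPKM of the 5 export genes Abcb11, Abcc2, Abcg2, Abcc3 and Abcc4. Their sum was 4.38, 5.21 and 2.66 FPKM in the CL rats and 7.26, 15.1 and 26.0 FPKM in the FL rats. As a share of the 5 genes this was 1.68%, 2.05% and 1.26% in the CL rats and 4.43%, 7.75% and 11.7% in the FL rats. Every FL rat had a larger share than every CL rat, with means of 1.66 ± 0.391% and 7.96 ± 3.64%, and the 3 canalicular genes kept the greater part in all 6 rats. Other basolateral exporters are outside this share.

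Within-rat log2 ratios compared transcript levels of gene pairs without dependence on a scaling factor for each rat, except through the pseudocount. Quantile normalization can change such ratios, and they were not run with it. Of 5 pairs planned, 4 were run, because 1 needed Abcb4. They were tested by an exact 2-sided permutation test, which cannot go below p = 0.1 with 3 rats against 3, so no ratio could reach 0.05. The log2 ratio of Abcc3 to Abcc2 was -6.01 ± 0.57 in the CL group and -3.22 ± 0.70 in the FL group, a difference of 2.79. That of Abcc4 to Abcc2 was -5.88 ± 0.17 and -4.08 ± 0.22, a difference of 1.80. Neither pair overlapped between the groups, and each reached the smallest p (exact p = 0.1, adjusted p = 0.133 over 4 pairs). The log2 ratio of Slc10a1 to Abcb11 was 0.55 ± 0.04 in the CL group and 0.81 ± 0.11 in the FL group, a difference of 0.25 without overlap (exact p = 0.1, adjusted p = 0.133). For Slco1a1 against Slco1b2 the difference of -0.19 was within the spread between rats (exact p = 0.5, adjusted p = 0.5). With 1 rat left out it ran from -0.33 (without FL2) to -0.033 (without CL6).

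**Figure D2:**
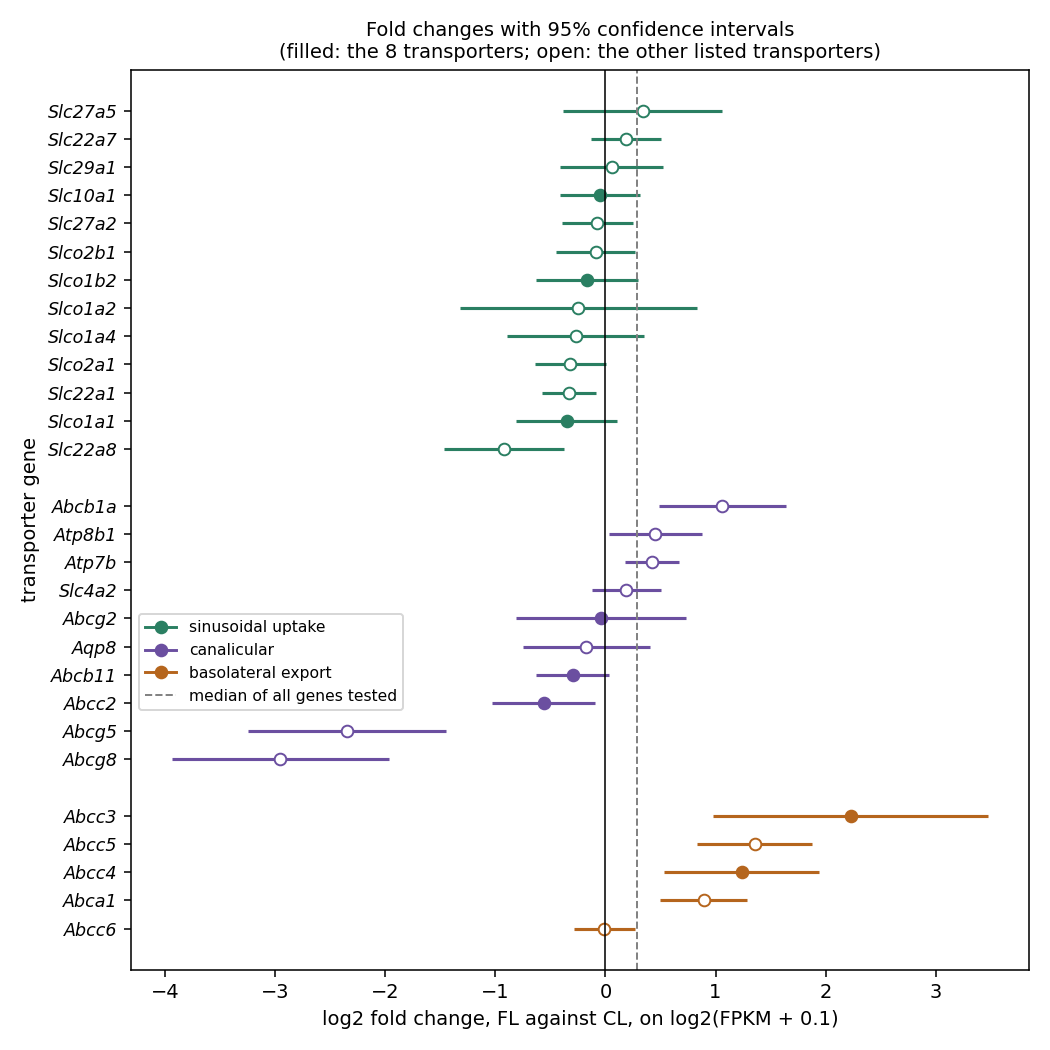
Log2 fold changes of FL against CL on the log2(FPKM + 0.1) scale for the 8 transporters (filled) and the other listed transporters tested (open), with 95% confidence intervals from limma. The dashed line is the median of all genes tested, 0.29, and the intervals of Abcc3 and Abcc4 lie above it while those of Abcg5 and Abcg8 lie far below 0.

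Further transporters of the same membranes were read from lists by membrane. Counts in these and the lists after them stand beside the shares of all genes, 9.29% upregulated and 0.935% downregulated, or 31.5% higher and 4.04% lower at an unadjusted p under 0.05, and shares near these are no result about a list. Of 12 other sinusoidal uptake genes, 10 could be tested, and limma called 0 of them in either direction (unadjusted p under 0.05 for 2, both lower). Slc22a8, an organic anion transporter, passed the adjusted p alone, at 33.7 ± 8.64 and 17.8 ± 4.96 FPKM (log2 fold change -0.92, limma adjusted p = 0.0337). It was called downregulated in 4 of 14 alternatives, among them median scaling (-1.15, adjusted p = 0.0257) and quantile normalization (-1.07, adjusted p = 0.0369), within a range of adjusted p from 0.0138 to 0.110 over all 14. The list's median was -0.46 relative to all genes, the same as for Slco1b2.

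Among 9 other canalicular genes, 7 were tested, with 1 upregulated and 2 downregulated. Abcg5 and Abcg8 encode the subunits of the pump that exports sterols into bile, and both were downregulated. Abcg5 read 6.70, 6.32 and 4.02 FPKM in the CL rats against 0.50, 1.17 and 1.67 FPKM in the FL rats. Abcg8 read 3.61, 2.56 and 1.41 FPKM in the CL rats against 0.09, 0.33 and 0.29 FPKM in the FL rats. FL2 was lowest for both, and no FL rat reached any CL rat. The log2 fold changes were -2.35 for Abcg5 (standard error 0.39, limma adjusted p = 0.00837) and -2.96 for Abcg8 (standard error 0.43, limma adjusted p = 0.00544), and both calls held in 14 of 14 alternatives. Abcb1a, a multidrug exporter, was upregulated from 6.44 ± 0.987 to 14.0 ± 4.66 FPKM (log2 fold change 1.06, limma adjusted p = 0.0253), with the call kept in 6 of 14 alternatives. Since reads mapped to a single place were counted, its level may miss reads shared with its paralog Abcb1b, which had no row under its symbol. This was not tested. Atp7b, a copper pump, passed the adjusted p alone at a log2 fold change of 0.42 (limma adjusted p = 0.0318), but its change was 0.14 relative to the median. It passed with neither median scaling nor quantile normalization.

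Of 6 other basolateral export genes only 3 were tested. Abcc5 (MRP5, an exporter of nucleotides and conjugates) was upregulated from 0.977 ± 0.0651 to 2.72 ± 0.733 FPKM (log2 fold change 1.35, limma adjusted p = 0.00868) and kept the call in 12 of 14 alternatives. Abca1, the cholesterol exporter to apolipoprotein A-I, passed the adjusted p alone at 0.89 (limma adjusted p = 0.0132). Abcc6, at 42.0 ± 4.10 and 41.7 ± 2.64 FPKM, exceeded Abcc3 and Abcc4 in level and had a log2 fold change of -0.01. Slc51a, a subunit of the bile acid exporter OST, was listed at 0 in 5 of the 6 rats.

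Among 14 transcriptional regulators of these genes limma called 0 (unadjusted p under 0.05 for 4 higher and 2 lower). Rara passed the adjusted p alone (log2 fold change 0.69, limma adjusted p = 0.0250), but not with median scaling (adjusted p = 0.118) or quantile normalization (adjusted p = 0.208). Nr1h4, the bile acid receptor FXR, was at 56.5 ± 8.13 and 57.5 ± 6.31 FPKM. Nr0b2 (SHP, its target) was at 4.39 ± 4.19 and 14.2 ± 5.79 FPKM with CL5 at 9.19 and FL12 at 9.20 FPKM almost tied, just short of the limits (log2 fold change 2.02, limma adjusted p = 0.0519) and called in 2 of 14 alternatives. Foxa2 was at 18.0 ± 6.54 and 8.43 ± 2.93 FPKM with overlap (log2 fold change -1.06, limma adjusted p = 0.0565), also called in 2 of 14. Of 9 scaffold and trafficking genes tested, again 0 were called (unadjusted p under 0.05 for 2, both higher), and Msn (moesin), which links membranes to actin, passed the adjusted p alone (log2 fold change 0.90, limma adjusted p = 0.00511). Of 8 genes of bile acid synthesis and conjugation, 1 was upregulated. This was Cyp7a1, the rate-limiting enzyme, at 51.1, 27.0 and 29.4 FPKM in the CL rats and 96.3, 89.2 and 202 FPKM in the FL rats (log2 fold change 1.80, limma adjusted p = 0.0134). Baat, which conjugates bile acids, passed the adjusted p alone in the other direction (log2 fold change -0.71, limma adjusted p = 0.0365).

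Lists of cell type markers were read beside the transporters. Of 10 hepatocyte-like markers limma called 0 (unadjusted p under 0.05 for 1, higher), with a median log2 fold change of -0.09 (-0.38 relative to all genes), which turned to 0.32 with quantile normalization. Their FPKM, mostly Alb, Tf and Ttr, summed to 53342, 50569 and 51225 in the CL rats and 45720, 44828 and 44128 in the FL rats. The members went both ways. Alb, Ttr, Apob and Hnf4a were lower in every FL rat than in every CL rat, and Tf and Apoa1 were higher. Limma's trend over abundance set wide errors for the most abundant of them, with standard errors of 0.98 for Alb, 0.48 for Tf and 0.42 for Ttr. The lack of calls for these genes is therefore no measure of the spread between rats. Hnf4a is in both this list and that of the regulators. Medians relative to all genes were -0.46 for the uptake genes and -0.59 for the canalicular genes. With quantile normalization the median log2 fold changes were -0.11 and -0.48, where that of all genes was -0.05. The part of hepatocyte content in the transporter values was not tested.

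Upregulated genes were found in 5 other marker lists, and no marker of any list was at 0 in all 6 rats. Of 8 myofibroblast-like markers 4 were upregulated (Col1a1, Col3a1, Pdgfrb and Des) and Reln passed the adjusted p alone, with summed FPKM of 87.5, 91.3 and 84.1 in the CL rats and 203, 541 and 490.3 in the FL rats, led by Col3a1. Of 8 macrophage-like markers 4 were upregulated (Cd68, Lyz2, Csf1r and Marco), 3 with either scaling, and C1qa passed the adjusted p alone, with sums of 123, 118 and 118 against 283, 271 and 184, where Clec4f had the highest mean in the CL group and Marco in the FL group. Of 7 endothelial-like markers Vwf was upregulated, in 5 of 14 alternatives and under neither median scaling nor quantile normalization, and Stab2 and Eng passed the adjusted p alone, with sums of 81.3, 84.2 and 75.5 against 103, 93.3 and 102, where Kdr had the highest mean in the CL group and Lyve1 in the FL group. Cd4, which rat macrophages also carry, was the 1 gene called among 7 lymphocyte-like markers tested and the most abundant of the 8 listed, whose sums were 12.2, 9.78 and 10.97 against 22.9, 30.1 and 23.8. Mki67 and Birc5 were upregulated among 8 cycling markers, in 3 and 9 of 14 alternatives, and median scaling left 1 of the 2 calls, quantile normalization 0. The list had sums of 3.19, 6.19 and 4.09 against 5.32, 25.6 and 21.8, led by Mki67. Of the markers past the adjusted p alone, Reln, C1qa and Eng passed with neither scaling, and Stab2 passed with both.

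Abcc3 is also expressed by cholangiocytes, the cells of bile ducts. Of 6 cholangiocyte-like markers tested, limma called 0 (unadjusted p under 0.05 for 1, higher). The sums over the 7 markers of this list were 5.55, 7.75 and 5.65 FPKM in the CL rats against 5.49, 8.18 and 11.6 FPKM in the FL rats, led by Epcam. Krt19 read 0.590 ± 0.0361 and 0.637 ± 0.368 FPKM and Krt7 0.430 ± 0.165 and 0.230 ± 0.209 FPKM, low but not at 0 in any rat. Cftr read 0.12, 0.07 and 0.07 FPKM in the CL rats against 0.20, 0.34 and 0.91 FPKM in the FL rats, without overlap (log2 fold change 1.46, limma adjusted p = 0.0745). Sox9 read 0.17, 0.42 and 0.09 FPKM in the CL rats against 0.32, 0.43 and 1.02 FPKM in the FL rats, with overlap (log2 fold change 1.07, limma adjusted p = 0.168). FL12 had the highest Abcc3, Abcc4, Cftr, Sox9 and cholangiocyte-like sum, and FL2 the lowest Abcc3, Abcc4, Col1a1 and cycling sum of the FL rats. FL5 was highest for Col1a1 and the cycling sum, and FL12 had the lowest macrophage-like sum of the FL rats. The part of these cell types in the values of Abcc3 and Abcc4 was not tested.

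Genes most like each transporter were taken as the 2 with the highest Pearson r of log2(FPKM + 0.1) over the 6 rats, among 10535 genes. For Abcc3 they were Gtf2h3 (r = 0.998) and Tpr (0.996), and for Abcc4 Gcn1l1 (0.998) and Tpr (0.997). Tpr, a protein of the nuclear pore basket, thus stood beside both basolateral exporters, at 7.19, 7.64 and 6.33 FPKM in the CL rats and 8.51, 9.82 and 11.6 FPKM in the FL rats. The uptake genes had Smoc1 (0.978) and Esd (0.973) for Slc10a1, Adra1b (0.984) and Cyp2b3 (0.982) for Slco1a1, and Sub1 (0.986) and Ptch1 (0.984) for Slco1b2. Canalicular genes had Sh3bp5 (0.979) and Ang (0.976) for Abcb11, Tuba4a (0.987) and Cbs (0.983) for Abcc2, and Trappc5 (0.987) and SNORA67 (0.978) for Abcg2. The 6 rats form 2 groups, and r is given as a description.

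Promoter sequences were matched by symbol to RefSeq (GRCr8) for 7 of the 9 transporters, all but Abcb11 and Abcc3. The 250 bases before each gene start were searched on both strands for AGGTCA, the element that nuclear receptors bind, for TGACNNNGC, the core of the antioxidant response element, and for GGGCGG, the Sp1 box. AGGTCA was found in Slc10a1, Slco1b2 and Abcc2, against 14.1% of 33469 promoters of this length. TGACNNNGC was found in 0 of the 7, against 10.1%, and GGGCGG in Abcb4, Abcc2, Abcg2 and Abcc4, against 30.5%. The promoters of Abcc4 and Abcb4 were unusually rich in GC, at 77.6% and 76%, while that of Slco1b2 held 33.2%. Slc10a1 (chr6:106357945-106358194, minus strand) and Abcc2 (chr1:252613625-252613874, plus strand), an uptake and an export gene that each hold 2 matches, are shown with AGGTCA or its reverse complement TGACCT in capitals.
Slc10a1: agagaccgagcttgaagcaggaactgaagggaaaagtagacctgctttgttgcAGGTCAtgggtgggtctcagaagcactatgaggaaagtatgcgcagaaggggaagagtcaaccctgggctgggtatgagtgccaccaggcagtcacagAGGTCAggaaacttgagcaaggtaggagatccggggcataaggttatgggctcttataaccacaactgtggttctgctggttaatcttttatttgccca
Abcc2: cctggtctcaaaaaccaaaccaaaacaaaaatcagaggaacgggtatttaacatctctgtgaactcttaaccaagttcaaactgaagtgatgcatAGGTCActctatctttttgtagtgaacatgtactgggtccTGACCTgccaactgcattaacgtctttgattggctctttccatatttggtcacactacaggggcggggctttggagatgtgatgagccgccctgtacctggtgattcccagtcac

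Abcg5 and Abcg8, which were downregulated together, lie head to head, and the window between their starts (chr6:15717731-15717935, given on the plus strand, the strand of Abcg5) has 205 bases and 52.2% GC. It is shown because 1 short sequence precedes both genes. It held no AGGTCA and no GGGCGG on either strand, 1 TGACNNNGC, left in lower case, and 1 TATAAA, the sole stretch in capitals. That last motif was found on either strand in 12.9% of all promoters of 250 bases. A match describes letters in the window and no site.
Abcg5 and Abcg8: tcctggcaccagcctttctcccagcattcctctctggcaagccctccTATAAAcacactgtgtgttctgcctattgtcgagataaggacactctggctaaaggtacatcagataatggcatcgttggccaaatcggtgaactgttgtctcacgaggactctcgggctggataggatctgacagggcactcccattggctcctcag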

How the data were processed

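The libraries were made from liver RNA of 3 CL and 3 FL rats, which were assigned to groups from their labels. The authors trimmed the reads, aligned them with TopHat2, counted reads mapped to a single place and deposited the level of each gene as FPKM with 2 decimals, without pooling rats. GRCh38 is named as the build, while the identifiers are Ensembl's for the rat. The file gives chromosomes alone, so no gene coordinates are printed, and promoter windows are those of RefSeq (GRCr8). The annotation release is not given in the sources used here. A further 2 value columns match no sample and were not used.

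FPKM are not counts, so log2(FPKM + 0.1) was tested with limma 3.58.1 in R 4.3.3 with a mean-variance trend. Fold changes on this scale understate those of low genes. P-values rest on the spread between rats, moderated by limma towards its trend over abundance. For the most abundant genes this trend widened the error, as for Alb, with a standard error of 0.98. Identical values above 0 made up 0.932% to 2.71% of genes in any pair of rats, so no library was treated as a copy. Alternatives changed the pseudocount, the filter, the scaling (by medians or quantiles) and limma's prior (no trend, or robust), dropped the fold limit or left out each rat. The transporters were named in full, and of other lists the members past an adjusted p of 0.05, or else the 2 most abundant; further genes were named after their values were seen. The members and lists were chosen with earlier results of these data known. A listed marker is not reported here and was left out of its list. The procedure was tested on simulated data. Python 3.11.15 with pandas 2.3.3, scipy 1.17.1 and matplotlib 3.10.9 made the tables and figures.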

Additional observations from a re-analysis of the deposited data

How the results depend on the processing

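The log2 fold changes of Slco1a1, Slco1b2, Abcb11 and Abcc2 kept their sign in 14 of 14 alternatives and were called in none, although Abcc2 passed the adjusted p alone in 2. Over these alternatives they ran from -0.58 to -0.14 for Slco1a1, -0.39 to -0.011 for Slco1b2, -0.52 to -0.21 for Abcb11 and -0.79 to -0.36 for Abcc2. The 4 ratios kept their direction in 8 of 8 alternatives, which changed the pseudocount or left out a rat. No transporter was called lower in any of 15 alternatives. For Abcc3 the call was lost with quantile normalization (log2 fold change 1.90) and limma without trend (2.23), and leaving out 1 rat gave 1.73 to 2.81. For Abcc4 it was lost with a pseudocount of 1 (0.97), median scaling (1.02), quantile normalization (0.87) and limma without trend (1.24), and leaving out 1 rat gave 0.93 to 1.54. The number of transporters upregulated was thus 1 with a pseudocount of 1 or median scaling, 0 with quantile normalization or limma without trend, and 0 to 2 with 1 rat left out. Slc10a1 changed sign with quantile normalization (0.0055) and ranged from -0.18 to 0.030 with 1 rat left out, and Abcg2 from -0.24 to 0.30, with -0.48 under quantile normalization.

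Over all genes, 462 were upregulated with a pseudocount of 1, 854 at a mean of at least 1 FPKM, 824 with median scaling, 456 with quantile normalization, 2518 with no fold limit and 740 to 1831 with 1 rat left out. Downregulated were 72 with a pseudocount of 1, 227 with quantile normalization, 288 with no fold limit and 81 to 160 with 1 rat left out. Members of the other transporter, regulator, scaffold and bile acid lists called upregulated numbered 3, with 2 under median scaling and 1 under quantile normalization, and those called downregulated 2, with 3 under either. Fewer rats enter each fit when 1 is left out, yet without FL2 the counts rose to 1831 upregulated and 160 downregulated. The causes of these changes were not tested. No paired analysis was possible because the groups share only 1 rat number, 5, which belongs to different animals. The ratio of Abcb4 to Abcb11 was not run. Groups of 3 rats and a depth unknown for each library limit every value, most of all those near 0.1 FPKM.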
